A study of Mus musculus with 24 samples.

Results

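Cell cycle exit, D-type cyclin and p53 target genes were followed in cultured mouse oligodendrocytes, the cells that make myelin in the brain. The 10 genes were taken by symbol from a list that was drawn up with earlier results of these data known; the list itself sets no threshold on a measured value. They are the inhibitors Cdkn1a, Cdkn1b and Cdkn1c, the cyclins Ccnd1, Ccnd2 and Ccnd3, and the p53 targets Mdm2, Ccng1, Trp53inp1 and Bax. All 10 were found, each under 1 identifier, among the 55359 genes of the count table, and all 10 passed the filter on low counts in every comparison.

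Immature oligodendrocytes were taken with magnetic beads against O4, a surface antigen of the lineage, from the cortices of C57Bl6J pups on postnatal days 5 to 7, and were differentiated for 3 days with triiodothyronine. They then spent 3 further days with ethanol or without it. Experiment 1 had 6 wells with 30 mM ethanol and 6 control wells with 0 mM, and experiment 2 had 6 wells with 10 mM ethanol and 6 control wells with 0 mM. Controls stood in an incubator of their own, and each dose was used in 1 experiment only, which the labels also call a batch, so ethanol cannot be told apart from incubator, nor dose from experiment. The labels call the wells biological replicates without saying which pups each came from, so p-values measure the spread between wells, part of which may be technical.

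RNA was read by 3′ tag sequencing, which counts transcripts by their 3′ ends, so a count does not scale with transcript length. The total count per well lay between 1184609 and 1817028. Levels are in CPM, counts scaled to the size of each library and between wells by TMM, and 3 counts were worth 1.70 to 2.53 CPM. Markers of mature oligodendrocytes summed to between 6845 and 16558 CPM over all wells, with none of the 10 markers at 0, and replicate 1 at 30 mM held the highest sum, against 9303 to 9714 CPM in the remaining 30 mM wells. Markers of other cells were present too, at 3902 to 6857 CPM for 8 astrocyte markers and 497 to 1524 CPM for 11 mural cell and fibroblast markers. The 10 microglia markers summed to 197 to 358 CPM in experiment 1 and 2491 to 3238 CPM in experiment 2. In such bulk samples, fewer cells of a type and less RNA per cell cannot be told apart.

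A cell leaves the cycle when D-type cyclins, which load the kinases CDK4 and CDK6 to phosphorylate the retinoblastoma protein, are outweighed by inhibitors. The CIP/KIP inhibitors p21 (Cdkn1a), p27 (Cdkn1b) and p57 (Cdkn1c) bind cyclin and kinase together, and in the oligodendrocyte lineage p27 and p57 are known for their part in the exit of precursors from division. The transcription factor p53 switches on Cdkn1a after damage or stress, along with Ccng1, Trp53inp1, the death effector Bax and its own inhibitor Mdm2.

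At 30 mM, transcripts of cyclin D1, cyclin D2 and the inhibitor p57 were lower than in the controls. Those of cyclin D3, cyclin G1 and Trp53inp1 were higher, whereas those of p21, p27, Mdm2 and Bax did not pass the test. Only RNA was counted, so protein levels and p53 activity were not measured. The calls of cyclin D2 and cyclin D3 were lost in some other fits, as given below. By the quasi-likelihood test of edgeR, 6 of the 10 genes passed an adjusted p of 0.05, where 9.67% of all 13235 genes tested did. Of the 10, 3 were higher and 3 lower, against 3.02% and 6.65% of all genes. The median log2 fold change of the 10 genes was 0.026, and that of all genes 0.023. DESeq2 called 5 of the 10 and limma voom 5, and edgeR called 4 with no filter on low counts. An unadjusted p under 0.05 by edgeR was found for 7, where 23.5% of all genes had one. At 10 mM, edgeR called 0 of the 10 genes, where 0.657% of all 13538 genes passed (0.391% higher and 0.266% lower), and 0 of the 10 had groups that did not overlap, where 0.768% of all genes did. DESeq2 called 0 of the 8 for which it gave an adjusted p (none was given for Cdkn1c and Ccnd3) and limma voom 0 of the 10, and 5 of the 10 had an unadjusted p under 0.05, where 10.1% of all genes did.

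**Figure D1:**
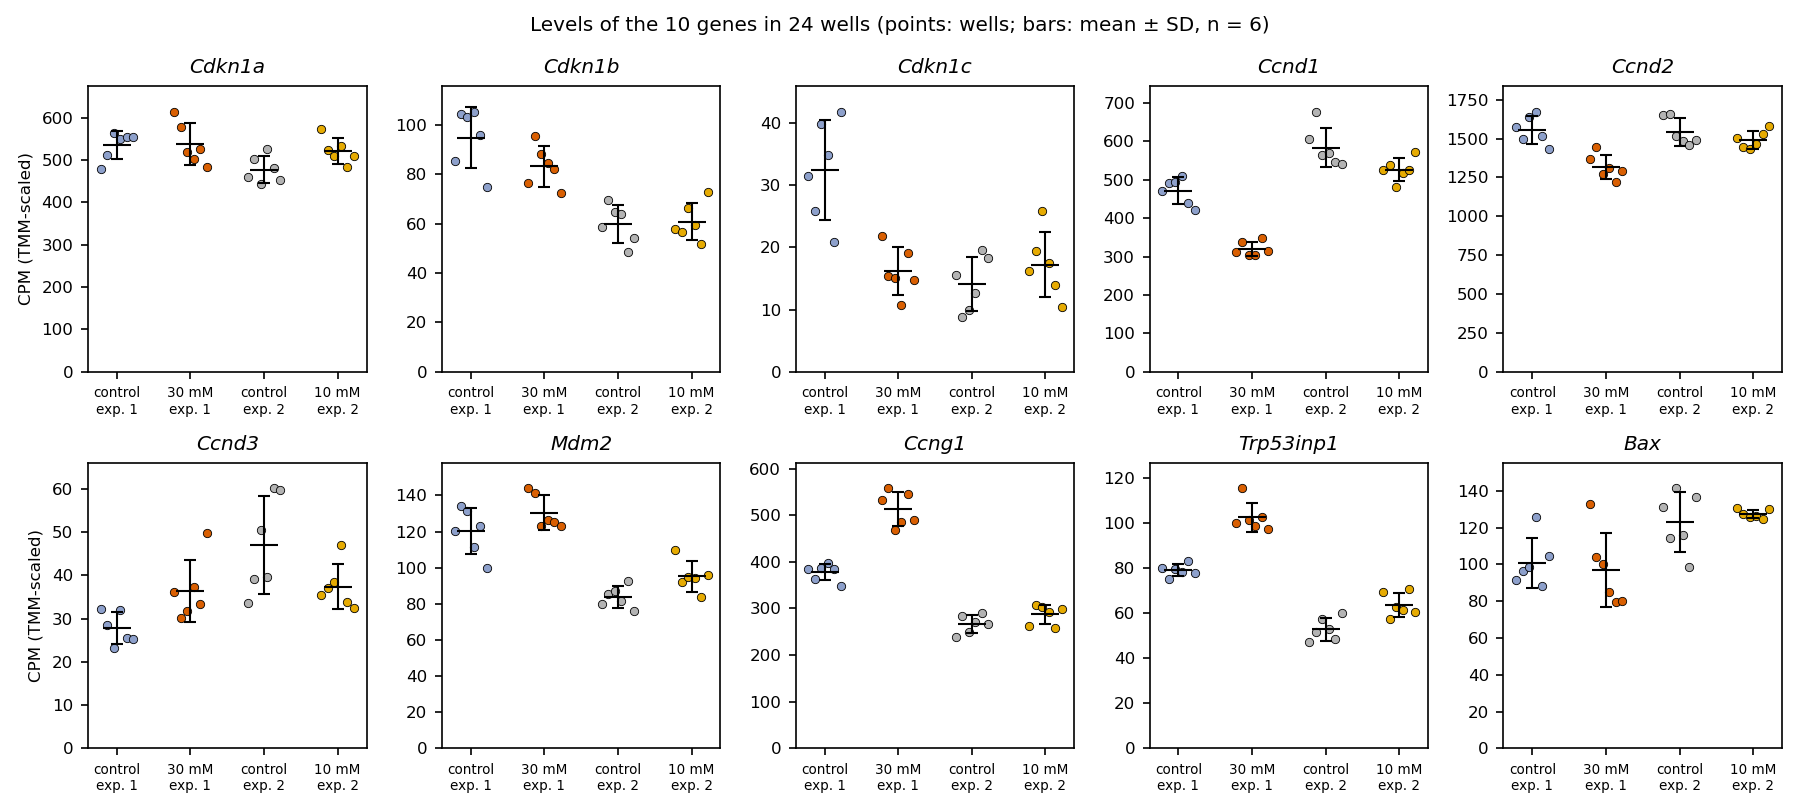
Level of each of the 10 genes in every well, as TMM-scaled CPM on a linear axis from 0, for the controls and the ethanol wells of both experiments; points are wells and bars the mean ± SD (n = 6). The 30 mM wells lie apart from their controls for Ccnd1 (303 to 347 CPM against 422 to 511), Ccng1 and Trp53inp1, and overlap with them for the other genes.

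The CIP/KIP inhibitor genes did not move together. Cdkn1c, which encodes p57, had 20.9, 33.1 and 41.8 CPM (lowest, median and highest well) in the controls of experiment 1, from 31 to 62 counts per well. At 30 mM it had 10.7, 15.2 and 21.8 CPM, from 15 to 35 counts. Only the lowest control well reached into the range of the ethanol wells. Cdkn1c fell by 0.94 on the log2 scale (standard error 0.177, adjusted p = 0.00022 by edgeR), from 32.4 ± 8.09 to 16.1 ± 3.84 CPM (SD, n = 6). In experiment 2 it had 8.85, 14.1 and 19.5 CPM in the controls and 10.4, 16.9 and 25.8 CPM at 10 mM, and the groups overlapped over most of their range. The log2 fold change there was 0.26 (95% interval -0.13 to 0.65, adjusted p = 0.713 by edgeR). The change differed between the doses by -1.22 (standard error 0.277, adjusted p = 0.00464 by edgeR). The controls of experiment 1 held more Cdkn1c than those of experiment 2, by 1.14 on the log2 scale (standard error 0.173, adjusted p = 5.38e-08 by edgeR), with every well of one above every well of the other. The mean at 30 mM, 16.1 CPM, stood beside 14.1 ± 4.37 CPM (SD, n = 6) in the untreated wells of experiment 2, a pair that was not tested.

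Cdkn1a, the gene of p21 and the inhibitor that p53 induces, had 478, 551 and 563 CPM in the controls of experiment 1 and 483, 523 and 613 CPM at 30 mM. The groups overlapped almost fully, and the log2 fold change was 0.055 (95% interval -0.067 to 0.18, adjusted p = 0.626 by edgeR). In experiment 2 it had 442, 470 and 526 CPM in the controls and 482, 517 and 573 CPM at 10 mM. Here 0.11 was the log2 fold change (95% interval 0.0042 to 0.22), which did not pass (adjusted p = 0.476 by edgeR).

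Cdkn1b, which encodes p27, had 74.9, 99.3 and 105 CPM in the controls of experiment 1 and 72.4, 83.2 and 95.5 CPM at 30 mM, a log2 fold change of -0.14 (95% interval -0.33 to 0.038, adjusted p = 0.344 by edgeR). With 10 mM it had 51.6, 58.7 and 72.7 CPM, and in the matching controls 48.5, 61.4 and 69.3 CPM, a log2 fold change of 0.012 (95% interval -0.18 to 0.21, adjusted p = 0.984 by edgeR). Its main difference lay between the experiments. The untreated wells of experiment 1 had 94.7 ± 12.3 CPM and those of experiment 2 had 59.9 ± 7.67 CPM (SD, n = 6), with no overlap (log2 difference 0.63, standard error 0.0925, adjusted p = 2.38e-08 by edgeR).

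Of the INK4 inhibitors, which bind CDK4 and CDK6 alone, 0 of the 4 tested passed at 30 mM and 0 of 3 at 10 mM in edgeR and limma voom. DESeq2 called 0 of the 3 with an adjusted p at 30 mM and gave none an adjusted p at 10 mM. At an unadjusted p under 0.05 there were 2 of 4 and 0 of 3, where 23.5% and 10.1% of all genes were. The 4 had a median log2 fold change of -0.35 at 30 mM.

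Ccnd1 and Ccnd2 were lower and Ccnd3 higher at 30 mM, although the calls of Ccnd2 and Ccnd3 were lost in some fits, as given below. Ccnd1 had 422, 482 and 511 CPM in the controls of experiment 1 and 303, 313 and 347 CPM at 30 mM. Every ethanol well lay below every control well, which held for 4.05% of all genes tested in either direction. Its log2 fold change was -0.51 (standard error 0.0616, adjusted p = 6.65e-08 by edgeR), a fold of 0.702, and it had the rank of 38 by p-value among the 13235 genes. In experiment 2, Ccnd1 had 542, 567 and 676 CPM in the controls and 481, 525 and 573 CPM at 10 mM, with overlap. The estimate there was -0.17 (95% interval -0.28 to -0.060), with an unadjusted p of 0.00269 that did not pass (adjusted p = 0.159 by edgeR). The 2 changes differed by -0.35 (standard error 0.0867, adjusted p = 0.00955 by edgeR). The group means ran from 584 CPM in the controls of experiment 2 through 527 at 10 mM, then 472 in the experiment 1 controls, to 320.2 at 30 mM. Of the neighbours in that order, the first pair did not pass, the last pair did, and the middle pair, which spans the experiments, was not tested.

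Ccnd2, the D-type cyclin with the most counts in these wells, had 1431, 1546 and 1671 CPM in the controls of experiment 1 and 1219, 1299 and 1446 CPM at 30 mM. The groups overlapped by 1 well on each side. The log2 fold change was -0.19 (standard error 0.0538, adjusted p = 0.0163 by edgeR), and the call was lost without any 1 of 4 wells, namely control replicates 3 and 4 and 30 mM replicates 3 and 5, where the adjusted p rose to at most 0.072. It was also lost with no filter on low counts (adjusted p = 0.0835 by edgeR). With 10 mM it had 1431, 1483 and 1583 CPM, and in its controls 1459, 1502 and 1658 CPM, a log2 fold change of -0.068 (95% interval -0.17 to 0.030, adjusted p = 0.691 by edgeR). Untreated wells of the experiments gave 1555 ± 90.2 and 1543 ± 88.6 CPM (SD, n = 6), a log2 difference of -0.031 (95% interval -0.14 to 0.073, adjusted p = 0.656 by edgeR).

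Ccnd3, the gene of cyclin D3, which can stand in for the other D-type cyclins at CDK4 and CDK6, had 23.2, 27.0 and 32.1 CPM in the controls of experiment 1 and 30.0, 34.8 and 49.8 CPM at 30 mM, from 32 to 64 counts per well. Its log2 fold change of 0.43 (standard error 0.142) passed narrowly (adjusted p = 0.0429 by edgeR). The call was lost without any 1 of 7 wells (control replicates 2, 3, 5 and 6 and 30 mM replicates 4, 5 and 6). Without 30 mM replicate 6, which had 49.8 CPM where the others had at most 37.2, the value was 0.32 (adjusted p = 0.174 by edgeR). It was lost as well in DESeq2 (adjusted p = 0.0783), in limma voom (adjusted p = 0.0588) and with no filter (adjusted p = 0.106 by edgeR). At 10 mM the estimate had the other sign, -0.34 (95% interval -0.58 to -0.090, adjusted p = 0.261 by edgeR), with 32.5, 36.3 and 47.0 CPM against 33.5, 45.0 and 60.1 CPM in its controls. The difference between the doses was 0.76 (standard error 0.194, adjusted p = 0.014 by edgeR). It did not pass without 30 mM replicate 6 (adjusted p = 0.0598 by edgeR) or without replicate 5 of the controls of experiment 2 (adjusted p = 0.051 by edgeR).

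Since 3′ tag counts do not scale with transcript length, the 3 cyclins were set beside each other as shares of their summed counts. These are shares of counts, as equal capture of the 3 transcripts was not tested. Ccnd1 took 22.9% ± 0.764 (SD, n = 6) of the summed counts in the controls of experiment 1 and 19.2% ± 1.29 at 30 mM, where the 6 ethanol wells (18.2% to 21.7%) lay below the 6 controls (22.1% to 24.4%). Ccnd2 made up most of the sum in every group, with means from 71.0% to 78.7%. Ccnd3 took between 1.35% and 2.19% in the group means. Together the 3 cyclins summed to 1879 to 2213 CPM in the controls of experiment 1 and 1600.3 to 1815 CPM at 30 mM, without overlap, and to 2065 to 2373 and 1949.7 to 2188 CPM in the controls and 10 mM wells of experiment 2. These shares and sums are descriptions without a test.

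**Figure D2:**
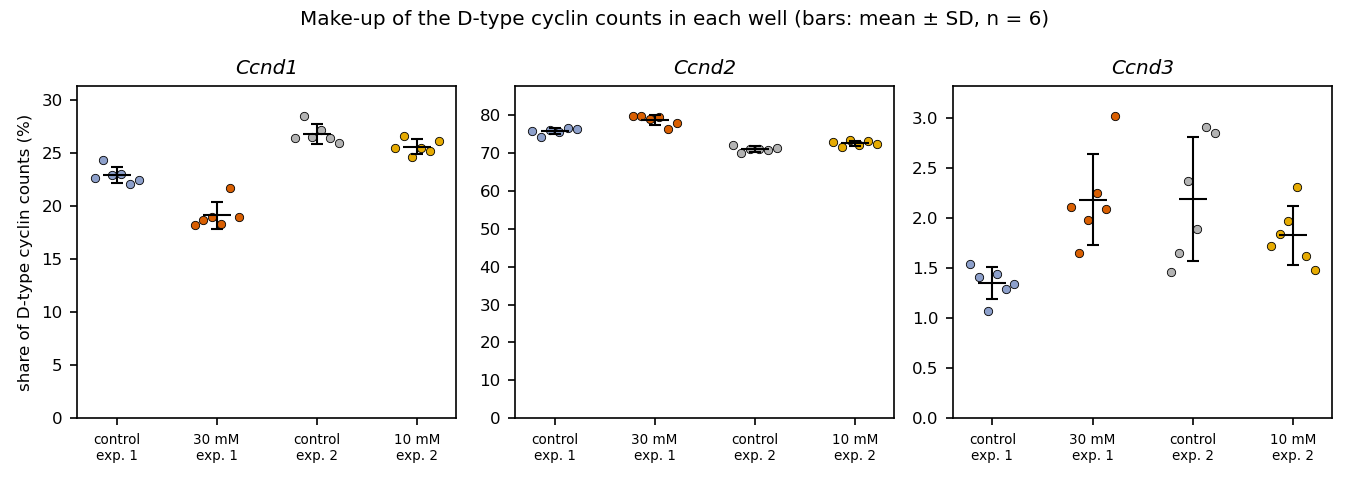
Share of the summed D-type cyclin counts that came from Ccnd1, Ccnd2 and Ccnd3 in each well, in percent on linear axes from 0 that differ between panels; points are wells and bars the mean ± SD (n = 6). The Ccnd1 share of the 30 mM wells, 18.2% to 21.7%, lies under that of their controls, 22.1% to 24.4%.

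Transcripts of the kinase partners of the D-type cyclins were lower at 30 mM as well. Cdk4, the kinase they activate, fell from 196 ± 14.9 to 143 ± 18.9 CPM (SD, n = 6), which was -0.40 as log2 fold change (standard error 0.0755, adjusted p = 0.000227 by edgeR), and Cdk6 fell from 110.5 ± 9.95 to 83.7 ± 8.96 CPM, a log2 fold change of -0.36 (standard error 0.0898, adjusted p = 0.00663 by edgeR). In both, every ethanol well lay below every control. Rb1, the retinoblastoma gene that they target, rose by 0.38 on the log2 scale (standard error 0.115, adjusted p = 0.0275 by edgeR). Of 17 tested kinase, cyclin E and A, RB and E2F genes, 1 was higher and 5 were lower at 30 mM, where 3.02% and 6.65% of all genes were, with a median log2 fold change of -0.31 against 0.023 over all genes. The others that passed were Ccna2 (-0.68), the cyclin of S phase, Cks1b (-0.69), a kinase subunit, and Rbl1 (-0.86), a relative of Rb1. DESeq2 called 4 of the 16 with an adjusted p, against 6 in edgeR. At 10 mM, 0 of the 17 passed in edgeR or limma voom and 0 of the 3 with an adjusted p in DESeq2, 1 had an unadjusted p under 0.05, where 10.1% of all genes did, and the median was 0.040.

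Genes that dividing cells express went the same way at 30 mM. Of 23 tested, 19 were lower and 0 higher in edgeR, where 6.65% and 3.02% of all genes were, and the median log2 fold change was -0.47. Mki67, the proliferation antigen, went from 132 ± 14.0 to 92.4 ± 16.8 CPM (SD, n = 6; log2 fold change -0.47, adjusted p = 0.000644 by edgeR), while Pcna, the sliding clamp of DNA replication, had -0.26 and did not pass (adjusted p = 0.12 by edgeR). The 5 with the smallest p were Mcm6 (-0.73), Rrm2 (-0.64), Mcm7 (-0.57), Plk1 (-0.70) and Ube2c (-0.53), as log2 fold changes. At 10 mM, 0 of the 23 passed in edgeR or limma voom and 0 of the 12 with an adjusted p in DESeq2. An unadjusted p under 0.05 was found for 2, where 10.1% of all genes had one, and the median was -0.016.

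**Figure D3:**
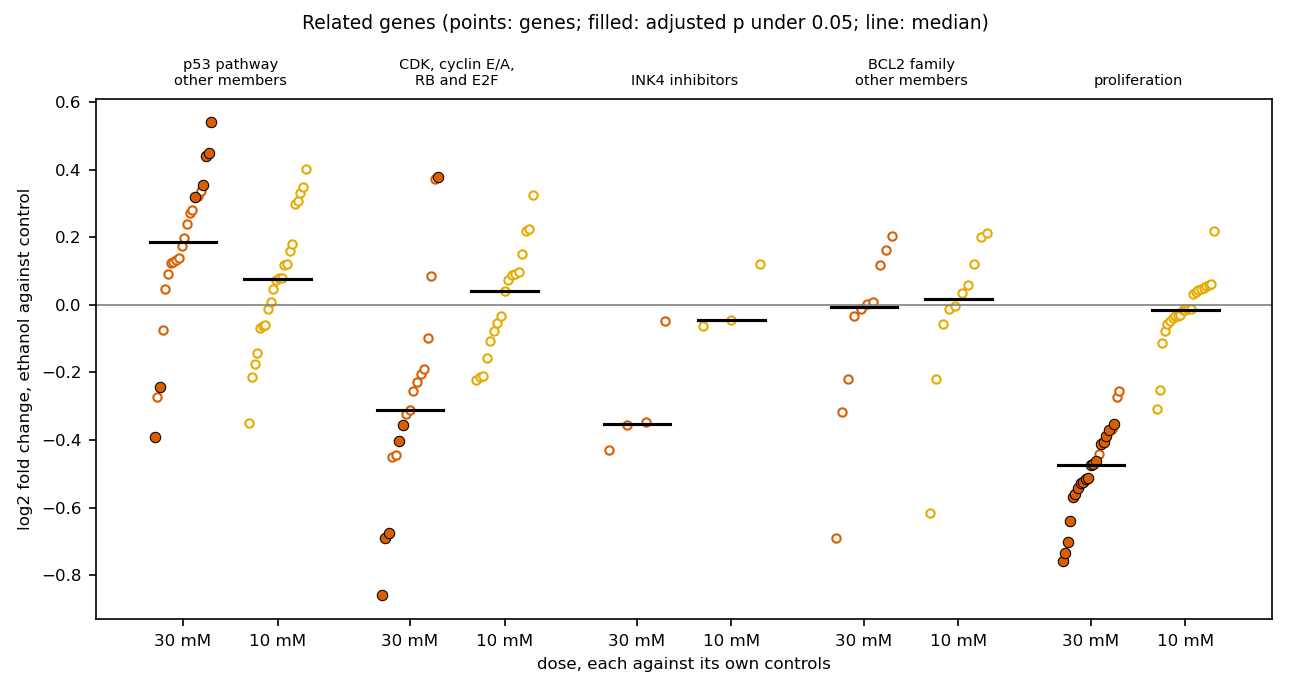
Log2 fold change of each tested gene of 5 related lists at 30 mM and 10 mM, each against its own controls; points are genes, filled where the adjusted p was under 0.05, and black lines are medians. At 30 mM the proliferation list has its median at -0.47 and the p53 list at 0.19, and at 10 mM no point is filled.

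Of the 4 p53 targets, Ccng1 and Trp53inp1 passed at 30 mM, and Mdm2 and Bax did not. Ccng1 encodes cyclin G1, a p53-induced protein that acts with a phosphatase on Mdm2. It had 349, 386 and 397 CPM in the controls of experiment 1 and 469, 511 and 558 CPM at 30 mM, with all ethanol wells above all controls. The log2 fold change was 0.49 (standard error 0.0588, adjusted p = 6.13e-08 by edgeR), a fold of 1.40, with the rank of 36 by p-value. In experiment 2 it had 239, 269 and 291 CPM in the controls and 259, 296 and 307 CPM at 10 mM, a log2 fold change of 0.090 (95% interval -0.031 to 0.21, adjusted p = 0.663 by edgeR). Its change differed between the doses by 0.39 (standard error 0.0886, adjusted p = 0.0047 by edgeR), although not with the low-count filter removed (0.33, adjusted p = 0.0808 by edgeR).

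The promoters of Ccng1 and Cdkn1a are shown because 1 window of each holds a match to the p53 response element with at most 1 mismatch. Ccng1 passed at 30 mM and Cdkn1a did not. Of the 10 genes, 6 had a window in the RefSeq promoter table (build GRCm38.p6), Cdkn1a, Cdkn1b, Ccnd3, Mdm2, Ccng1 and Bax, with 8 windows in all, and Cdkn1c, Ccnd1, Ccnd2 and Trp53inp1 had none. Each window held 300 bases, from 250 before to 50 after an annotated start. It was searched for the p53 response element, 2 abutting half-sites without a spacer and with at most 1 mismatch over 20 bases. The pattern is its own reverse complement, so 1 scan covered both strands. The element was found in 29 of 32851 windows of all genes (0.0883%), among them 1 window each of Ccng1 and Cdkn1a. The window of the other annotated start of Cdkn1a had 5 mismatches at its best site. Counts of 3′ ends do not show which start the counted transcripts came from. The 250 bases before the start follow, 5′ to 3′ on the gene's strand, with the element in capitals. That of Ccng1 is at chr11:40755287-40755536 on the minus strand, with the element 195 to 176 bases before the start, and that of Cdkn1a is at chr17:29090729-29090978 on the plus strand, before the upstream of its 2 annotated starts, with the element 51 to 32 bases before it.
Ccng1: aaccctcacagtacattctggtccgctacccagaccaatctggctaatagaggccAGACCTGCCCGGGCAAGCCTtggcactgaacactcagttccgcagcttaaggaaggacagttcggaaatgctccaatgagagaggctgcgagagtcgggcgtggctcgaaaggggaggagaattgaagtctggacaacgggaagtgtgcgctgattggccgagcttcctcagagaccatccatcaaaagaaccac
Cdkn1a: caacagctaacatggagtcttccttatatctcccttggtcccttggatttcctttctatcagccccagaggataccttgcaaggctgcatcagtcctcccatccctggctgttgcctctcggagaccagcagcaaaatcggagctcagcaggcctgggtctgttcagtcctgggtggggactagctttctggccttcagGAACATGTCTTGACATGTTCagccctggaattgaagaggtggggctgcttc
Beside these sequences, Ccng1 had a log2 fold change of 0.49 at 30 mM and Cdkn1a of 0.055. Among the further p53 pathway genes, 17 had windows in the table, and 0 of their 23 windows held the element within these limits. A match of letters is a description of the window and no measure of binding.

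Trp53inp1, which encodes a stress protein that takes part in p53-driven arrest, death and autophagy, had 75.3, 79.1 and 83.5 CPM in the controls of experiment 1 and 97.3, 101 and 116 CPM at 30 mM. These groups did not overlap. The log2 fold change was 0.42 (standard error 0.0818, adjusted p = 0.000346 by edgeR). At 10 mM it had 57.4, 62.3 and 70.7 CPM against 47.1, 52.3 and 60.3 CPM, and the estimate of 0.25 (95% interval 0.056 to 0.44) did not pass (adjusted p = 0.307 by edgeR). No difference between the doses was detected, at 0.16 (95% interval -0.082 to 0.41, adjusted p = 0.512 by edgeR).

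Mdm2, whose protein marks p53 for degradation, had 100.1, 122 and 134 CPM in the controls of experiment 1 and 123, 126 and 144 CPM at 30 mM. The groups overlapped. The log2 fold change was 0.17 at 30 mM (standard error 0.078, 95% interval 0.012 to 0.33, adjusted p = 0.175 by edgeR). At 10 mM it was 0.16 (standard error 0.0813, 95% interval 0.0025 to 0.33, adjusted p = 0.488 by edgeR). Neither passed, although the unadjusted p by edgeR was 0.035 at 30 mM and 0.047 at 10 mM. The 10 mM wells had 84.0, 94.6 and 109.7 CPM and their controls 75.7, 83.5 and 92.6 CPM. The difference between the doses was -0.0062, with a 95% interval from -0.23 to 0.22.

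Bax, which opens the mitochondrial membrane in cell death, had 88.2, 97.4 and 126 CPM in the controls of experiment 1 and 79.7, 92.5 and 133 CPM at 30 mM, a log2 fold change of -0.0023 (95% interval -0.20 to 0.20, adjusted p = 0.993 by edgeR). Replicate 1 held the highest of these values, and without it the estimate was -0.11 (adjusted p = 0.487 by edgeR). At 10 mM Bax had 124, 127 and 130 CPM against 98.4, 124 and 141 CPM, a log2 fold change of 0.028 (95% interval -0.12 to 0.18, adjusted p = 0.946 by edgeR). Of 10 other tested BCL2 family genes, 0 passed at either dose in edgeR or limma voom, and DESeq2 called 0 of the 9 with an adjusted p at 30 mM and 0 of 5 at 10 mM. At each dose 2 of the 10 had an unadjusted p under 0.05, where 23.5% of all genes did at 30 mM and 10.1% at 10 mM. These 10 leave out Bbc3 and Pmaip1, which belong to the family too but were counted with the p53 pathway genes. At 30 mM Bbc3 passed (log2 fold change 0.54, adjusted p = 0.0341 by edgeR) and Pmaip1 did not (0.32, adjusted p = 0.352 by edgeR). Neither passed at 10 mM.

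**Figure D4:**
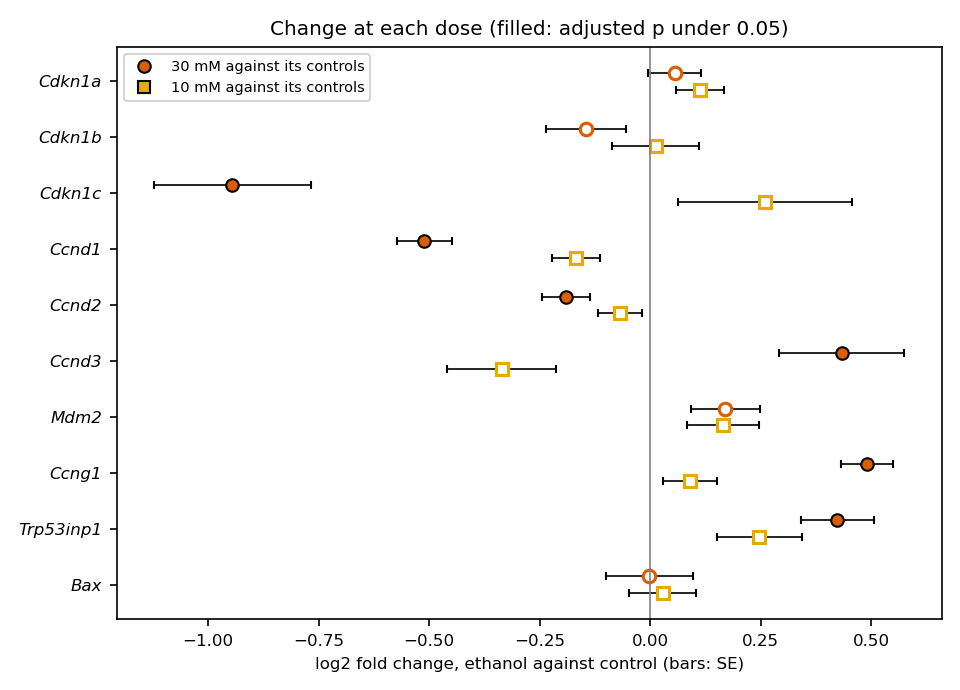
Log2 fold change of each gene against its own controls at 30 mM (circles) and 10 mM (squares), with standard error (SE) bars on a linear axis; filled symbols passed an adjusted p of 0.05 in edgeR. Cdkn1c and Ccnd1 lie lowest at 30 mM (-0.94 and -0.51), Ccng1 highest (0.49), and all 10 mM symbols are open.

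Of 22 further p53 pathway genes tested at 30 mM, 5 were higher and 2 lower in edgeR, where 3.02% and 6.65% of all genes were, with a median log2 fold change of 0.19 against 0.023 over all genes. Phlda3, a p53-induced inhibitor of AKT, rose from 177 ± 14.4 to 232 ± 8.47 CPM (SD, n = 6), with all ethanol wells above all controls (log2 fold change 0.44, standard error 0.0671, adjusted p = 8.23e-06 by edgeR). Btg2, an antiproliferative gene, rose by 0.45 (adjusted p = 0.00171 by edgeR), Bbc3, which encodes the death inducer PUMA, by 0.54 (adjusted p = 0.0341 by edgeR), and Ei24 by 0.32 (adjusted p = 0.00242 by edgeR). Sesn2, a stress-induced regulator of growth signalling that other pathways induce too, rose by 0.35 (adjusted p = 0.0371 by edgeR).

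The 2 lower ones were Perp (-0.39, adjusted p = 0.0363 by edgeR), a membrane protein, and Trp53 itself. Trp53, the gene of p53, went from 139 ± 4.49 to 114 ± 9.61 CPM (SD, n = 6), with no overlap (log2 fold change -0.24, standard error 0.0778, adjusted p = 0.0365 by edgeR). The count depended on the tool: DESeq2 called 3 of the 22 and limma voom 6, so not all 7 edgeR calls held in either. Of these 7, Bbc3, Perp, Trp53 and Sesn2 lay nearest the threshold (adjusted p from 0.0341 to 0.0371 by edgeR). At 10 mM, 0 of the 22 passed in edgeR or limma voom and 0 of the 5 with an adjusted p in DESeq2. An unadjusted p under 0.05 was found for 5, where 10.1% of all genes had one, and the median was 0.076. Whether the change differed between the doses was tested for the same 22 genes, and 0 passed in edgeR or limma voom and 0 of the 12 with an adjusted p in DESeq2. An unadjusted p under 0.05 was found for 5, where 17.2% of all genes had one.

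Whether the change differed between the doses was tested over all 24 wells, and 4 of the 10 genes passed (Cdkn1c, Ccnd1, Ccnd3 and Ccng1), where 3.28% of all 14655 genes did. For Cdkn1c and Ccnd1 the 30 mM change was the more negative, as for 2.40% of all genes, and for Ccnd3 and Ccng1 the more positive, as for 0.880%. The contrast holds dose and experiment together, and the starting levels differed.

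Without ethanol, 8 of the 10 genes differed between the experiments, where 43.6% of all 13479 genes did, and for 7 of them the wells did not overlap, which held for 18.9% of all genes. Higher in experiment 1, as were 21.3% of all genes, were Cdkn1c (log2 difference 1.14), Cdkn1b (0.63), Trp53inp1 (0.54), Mdm2 (0.48) and Ccng1 (0.46). Lower there, as were 22.3%, were Ccnd3 (-0.80), Ccnd1 (-0.35) and Bax (-0.33), the last with overlap. Cdkn1a (0.13, adjusted p = 0.0634 by edgeR) and Ccnd2 did not pass. All 9 tested microglia markers were lower in the controls of experiment 1, with a summed level of 197 to 358 CPM against 2491 to 3006 CPM, and the part of this in the differences of the 10 genes was not tested.

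Markers of other cells also moved with the 30 mM comparison. Of 11 mural cell and fibroblast markers, 8 were lower and 0 higher, where 6.65% and 3.02% of all genes were. Their summed level was 497 to 608 CPM at 30 mM against 1094 to 1524 CPM in the controls, with none of the markers at 0. Mature oligodendrocyte markers were higher in 7 of 10 cases (9303 to 16558 against 7395 to 9347 CPM) and astrocyte markers in 5 of 8 (5376 to 6857 against 3902 to 5061 CPM), with 0 lower in either. The sums of the 6 precursor markers overlapped, at 528 to 700.4 against 618 to 695 CPM. Of 7 tested microglia markers 1 was higher and 0 lower, and of 5 tested neuron markers 0 were higher and 1 lower. The part of these shifts in the changes of cyclins, inhibitors and p53 targets was not tested. At 10 mM, 2 of 10 tested mural cell and fibroblast markers were lower, with sums of 605 to 699 CPM against 639 to 807 CPM, and 3 of 10 mature oligodendrocyte markers were higher and 0 lower (8367 to 9372 against 6845 to 8834 CPM). Of the 9 tested microglia markers 1 was higher there, and of 5 neuron markers 1 was higher and 1 lower. Among all genes at 10 mM, 0.391% were higher and 0.266% lower. The share of counts from mitochondrial genes was 3.59% to 4.79% at 30 mM and 2.94% to 3.82% in its controls, and 1.81% to 2.37% at 10 mM and 2.06% to 2.39% in its controls, so that every well of experiment 1 lay above every well of experiment 2. Its part in the changes of the 10 genes was not tested. Without 30 mM replicate 1, the well with the most mature oligodendrocyte RNA, the count of the 10 genes that passed was again 6, and the log2 values against the controls were -1.05 for Cdkn1c, -0.49 for Ccnd1, -0.19 for Ccnd2, 0.45 for Ccnd3, 0.49 for Ccng1 and 0.44 for Trp53inp1.

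Within groups, the 10 genes differed in how far they varied in step from well to well. After the group means were taken away, the closest pair was Ccnd1 and Ccnd2, with a Pearson r of 0.65 over the 24 wells. Next came Cdkn1b with Ccnd1 (0.56) and Cdkn1b with Ccnd2 (0.48). The most opposed pair was Cdkn1b and Cdkn1c, with -0.45. Among 8434 genes with at least 20 CPM, the 2 most like Cdkn1a were Rtn4 (r = 0.89) and Trp53inp2 (0.87), and those most like Ccnd1 were Marc2 (0.84) and Sparc (0.82). Pfdn5 (0.89) and Rfc1 (0.88) followed Ccnd2, Sae1 (0.81) followed Bax, and Smim11 (0.84) followed Cdkn1b. For the other 5 genes no gene reached an r of 0.8. The wells share their libraries and depth across genes, and the genes named are the highest of 8434, so these values only describe the wells.

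The counting step's use of strand is not given in the sources used here, so reads of overlapping genes cannot be told apart. In the GENCODE M21 annotation, Ccnd1 overlaps LTO1 and Ccnd3 overlaps Bysl, both protein-coding genes on the other strand. Cdkn1a, Cdkn1c and Ccnd2 overlap non-coding or unclassified loci on the other strand, and Bax overlaps the gene model Gm45808 on its own strand. Cdkn1b, Mdm2, Ccng1 and Trp53inp1 overlap no other annotated gene there.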

How the data were processed

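RNA from 24 wells in 4 groups of 6 was measured by 3′ tag sequencing, with single-end reads of 100 bases, per the labels' protocols. The authors deposited raw counts per gene, whole numbers named by Ensembl identifiers. cutadapt 1.18, STAR and the build GRCm39 are named in the submitters' processing notes; the counter, the annotation release and the removal of PCR duplicates are not given in the sources used here. Of 55359 identifiers, 52083 matched a table of gene symbols. No pair of wells in a group agreed within sampling noise (chi-square per degree of freedom 1.07 to 2.88).

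Tests used edgeR 4.0.16 (R 4.3.3), the quasi-likelihood test with TMM, filterByExpr at a minimum of 10 counts and Benjamini-Hochberg adjustment over all genes tested. Fits held 12 wells each, a dose and the controls of its experiment, or both sets of controls; the difference between doses used all 24 wells. SE was derived from the test, as the size of the log2 fold change divided by the square root of its F statistic. The 95% intervals use this SE and the t quantile. Log2 CPM for correlations had a prior count of 2. The fit was tested on simulated counts. The 10 genes, the lists and the rule for named genes were chosen with earlier results of these data known. The rule named all 10 genes, up to 5 called genes with the smallest p per list and comparison, and Trp53, Cdk4, Cdk6, Rb1, Mki67 and Pcna; Sesn2 and Rbl1 were added after their values were seen to complete a count. A gene that the rule named by its likeness to Bax is not reported here. Alternatives were RLE and upper quartile scaling, other filters, DESeq2 1.42.0, limma 3.58.1 (voom), a joint fit, a replicate block and leaving out each well.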

Additional observations from a re-analysis of the deposited data

Results flagged for a closer look

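Among 80 series of 6 wells (the 10 genes, the cyclin shares and the summed markers, in 4 groups), 7 had a well far from the others, where chance gives about 4. At 30 mM these were replicate 6 for Ccnd3 (49.8 CPM, others 30.0 to 37.2), replicate 2 for Trp53inp1 (115.5 CPM, others 97.3 to 103) and replicate 5 for the Ccnd1 share of D-type cyclin counts (21.7%, others 18.2% to 18.99%). Among marker sums they were 16560 CPM of mature oligodendrocyte markers in replicate 1 (others 9303 to 9714) and 6857 CPM of astrocyte markers in replicate 2 (others 5376 to 5602), both at 30 mM. In the controls, replicate 6 of experiment 1 had 3902 CPM of astrocyte markers (others 4683 to 5061) and replicate 4 of experiment 2 had 38.7 CPM of endothelial markers (others 55.3 to 64.5).

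The change differed between the doses, 30 mM minus 10 mM on the log2 scale, for Cdkn1c (-1.22), Ccnd1 (-0.35), Ccnd3 (0.76) and Ccng1 (0.39). The related genes named by the rule that differed were Ccna2 (-0.84), Cdk4 (-0.45), Ccne2 (-0.79), Cks1b (-0.67), Bak1 (-0.45), Mcm6 (-0.79), Top2a (-0.47), Ube2c (-0.60), Plk1 (-0.70) and Kif11 (-0.75). These 14 genes had an adjusted p under 0.05 when edgeR tested the difference, which holds dose and experiment together. As the rule names at most 5 genes per list, they are not all that passed. By list, 12 of 23 proliferation genes passed, 4 of 17 kinase, cyclin, RB and E2F genes, and 1 of 10 BCL2 family genes. Of the further p53 pathway genes 0 of 22 passed, and of the INK4 inhibitors 0 of 4. Among all genes 3.28% did.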

How the results depend on the processing

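Cdkn1c, Ccnd1, Ccng1 and Trp53inp1 kept their direction and their call at 30 mM under every alternative and without any 1 well; Ccnd2 and Ccnd3 did not, as given above, and Ccnd3 was also lost with the replicate block (adjusted p = 0.0558). Without 1 well at a time, 953 to 1563 genes passed at 30 mM (the most without 30 mM replicate 1), 37 to 95 at 10 mM (37 without control replicate 5 of experiment 2), 329 to 759 for the difference between doses (759 without 30 mM replicate 1) and 5367 to 6250 between controls. Of the 10 genes, 4 to 6, 0, 3 to 4 and 8 to 9 passed in these comparisons. A joint fit of the 24 wells called 21 genes at 10 mM, against 89, and 0 of the 10 genes. Cdkn1a passed between controls with no filter (adjusted p = 0.0319), in limma voom (adjusted p = 0.049), with the replicate block (adjusted p = 0.0398) and without any 1 of 4 of the 12 wells. DESeq2 gave no adjusted p for Cdkn1c and Ccnd3 at 10 mM or for the difference of Cdkn1c. The causes were not tested.

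Changes of sign were seen for log2 estimates near 0 that did not pass. For Bax at 30 mM they were 0.0017 (RLE scaling), 0.032 (upper quartile scaling) and 0.029 (filter at 30 counts), and -0.11 to 0.066 without 1 well. For the difference between doses they were 0.0047 (Cdkn1a), 0.067 (Mdm2) and 0.032 (Bax) with upper quartile scaling, 0.042 (Mdm2) and 0.0068 (Bax) with the filter at 30 counts, and 0.00018 (Mdm2) in limma voom. Without 1 well, this difference ran from -0.060 to 0.029 for Mdm2 and from -0.17 to 0.018 for Bax. At 10 mM, leaving out 1 well gave -0.044 to 0.059 for Cdkn1b and -0.024 to 0.076 for Bax. Between controls, Ccnd2 was 0.020 with no filter.

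Scaling and filter moved the split of all genes into higher and lower, but no direction of a called gene among the 10. At 30 mM it was 400 and 880, and 551 and 697 with upper quartile scaling or 533 and 728 with the filter at 30 counts. At 10 mM it was 53 and 36, and 54 and 11 with no filter. For the difference it was 129 and 352, and 222 and 203 with upper quartile scaling, 169 and 293 with the filter at 30 counts and 64 and 386 with none. Between controls it was 2873 and 3007, and 2327 and 3593 with upper quartile scaling.

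Wells of equal number did not deviate together (r from -0.13 to 0.21, and 1 of 12 wells correlated best with its own number), so the numbers were not taken as pairs. With the replicate block, 1208, 68, 461 and 5860 genes passed at the high dose, the low dose, for the difference and between controls, and 5, 0, 4 and 9 of the 10 genes. Cdkn1c and Ccnd3, at 12 to 62 and 32 to 85 counts per well, are the genes that depth limits most.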
